A study of Mus musculus with 12 samples.

Results

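The proteasome subunit genes were the 43 protein-coding genes of the GENCODE M21 annotation whose symbols are Psma, Psmb, Psmc, Psmd or Psme followed by a number, out of 53379 gene IDs in the count tables. They were followed through whole mouse skin in 12 RNA-seq libraries, 3 in each of 4 groups. Injured Nf1-KO skin and injured control skin were taken 14 days after injury, and uninjured Nf1-KO skin and uninjured control skin served as their baselines. All animals were 3 months old and of the strain given as C57BL/6 & B6D2, and all carried Prss56Cre, which drives Cre in the boundary cap lineage, with the R26tdTom reporter. Nf1-KO animals carried, in addition, Nf1flox/-, that is 1 floxed and 1 null allele of Nf1, the gene of the RAS inhibitor neurofibromin. The null allele does not need Cre, so skin cells outside that lineage carried it too. The labels number 3 samples per group without saying that they were separate animals, so the p-values measure the spread between these samples.

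The proteasome degrades proteins tagged with ubiquitin. Its 20S core is a barrel of alpha and beta rings. The beta rings hold the proteolytic sites on Psmb5, Psmb6 and Psmb7, and the alpha rings gate the entrance. The 19S regulatory particle, built from Psmc ATPases and Psmd subunits, binds, unfolds and feeds in the substrates. In cells exposed to interferon gamma and in leukocytes, Psmb8, Psmb9 and Psmb10 replace Psmb5, Psmb6 and Psmb7 to form the immunoproteasome, which favours peptides that fit MHC class I molecules. Psme1 and Psme2 form the PA28 cap, Psme3 forms PA28 gamma and Psme4 forms PA200. The members thus comprised 7 alpha and 7 beta genes of the constitutive core, 3 immunoproteasome genes, 2 tissue-restricted core genes (Psma8 of the testis and Psmb11 of the thymus), 6 ATPases, 11 non-ATPase subunits, 3 base assembly chaperones (Psmd5, Psmd9 and Psmd10) and 4 activator caps.

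Promoter windows are shown for catalytic subunits because their values differed in injured skin within both kinds of proteasome: Psmb5, Psmb6 and Psmb10 rose, and Psmb7, Psmb8 and Psmb9 were not called. Psmb7 had no matched window. Each window has 300 bases, 250 before and 50 after the RefSeq start (GRCm38.p6, the assembly of mm10), written 5′ to 3′ on the strand of the gene, with motif matches in capitals.
Psmb5: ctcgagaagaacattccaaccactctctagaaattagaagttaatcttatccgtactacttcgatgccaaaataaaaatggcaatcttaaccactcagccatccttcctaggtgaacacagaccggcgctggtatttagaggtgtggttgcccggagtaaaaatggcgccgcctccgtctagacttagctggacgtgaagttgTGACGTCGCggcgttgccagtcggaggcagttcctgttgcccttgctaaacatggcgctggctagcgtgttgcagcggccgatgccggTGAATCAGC
Psmb6: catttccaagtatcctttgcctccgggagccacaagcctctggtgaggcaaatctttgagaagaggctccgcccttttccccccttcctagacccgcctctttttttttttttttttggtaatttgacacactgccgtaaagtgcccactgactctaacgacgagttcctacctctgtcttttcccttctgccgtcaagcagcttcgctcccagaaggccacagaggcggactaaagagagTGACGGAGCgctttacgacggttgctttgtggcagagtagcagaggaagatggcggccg
Psmb8: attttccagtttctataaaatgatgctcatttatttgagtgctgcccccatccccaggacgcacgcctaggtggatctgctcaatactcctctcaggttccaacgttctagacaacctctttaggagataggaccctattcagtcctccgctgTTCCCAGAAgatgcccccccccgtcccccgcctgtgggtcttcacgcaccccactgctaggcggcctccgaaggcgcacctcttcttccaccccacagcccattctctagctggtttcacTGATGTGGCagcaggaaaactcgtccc
Psmb9: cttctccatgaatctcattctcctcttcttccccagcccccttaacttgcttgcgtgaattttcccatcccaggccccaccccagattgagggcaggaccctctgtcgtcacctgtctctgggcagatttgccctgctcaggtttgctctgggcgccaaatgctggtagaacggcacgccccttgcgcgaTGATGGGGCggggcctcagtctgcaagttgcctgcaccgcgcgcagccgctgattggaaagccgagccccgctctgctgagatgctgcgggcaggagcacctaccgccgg
Psmb10: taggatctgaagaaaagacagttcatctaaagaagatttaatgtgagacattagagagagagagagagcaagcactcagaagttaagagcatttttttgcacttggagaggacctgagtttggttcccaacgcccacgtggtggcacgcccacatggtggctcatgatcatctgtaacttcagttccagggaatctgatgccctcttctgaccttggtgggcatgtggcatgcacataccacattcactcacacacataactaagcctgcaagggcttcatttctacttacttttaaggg
The Psmb5 window lies at chr14:54617946-54618245 on the minus strand and the Psmb6 window at chr11:70525107-70525406 on the plus strand. Windows of Psmb8 (chr17:34197945-34198244, plus strand) and Psmb9 (chr17:34187281-34187580, minus strand) lie close together in the MHC region beside Tap1. That of Psmb10 lies at chr8:105938343-105938642 on the minus strand. Capitals mark TGANNNNGC, a loose core of the antioxidant response element to which NRF1 and NRF2 bind, its stricter form TGANTCAGC, which overlaps it, and TTCNNNGAA, the gamma-activated site. GAAANNGAA, an interferon-stimulated response element, was searched too, each motif on both strands. RefSeq windows were matched for 36 of the 43 members and numbered 39. The loose core was present in 23 of these 39 windows (59.0%), against 41.3% of all 32851 windows of that length. Psmb5 had the strict form at the downstream end of its window, at position 292 of 300 and so after the RefSeq start. It was the single match among the member windows (2.56%, against 1.19% of all windows). GAAANNGAA was found in 6 member windows (15.4%, against 8.56%), none of them among the 5 shown, and TTCNNNGAA in 2 (5.13%, against 8.30%), of which Psmb8 is shown. No searched motif was found in the Psmb10 window. A match is a run of letters and not a measured binding site.

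Members took 0.555% to 0.746% of all counts in a library, and library totals ran from 8817013 to 16809687 counts. All 43 passed the expression filter, and 41 had counts in all 12 libraries. Skin state was joined to other differences. The 6 injured libraries carried female markers (Xist 436 to 627 raw CPM, that is, counts relative to the library total) and the 6 uninjured ones male markers (Xist 0.709 to 2.95 raw CPM). Injured libraries also had a lower background, measured as reads in receptor genes of the nose, at 0.00252 to 0.0598 raw CPM per kb against 0.106 to 0.373 in uninjured libraries. The share of ribosomal RNA-like counts (Gm42418, Gm26917, AY036118 and annotated rRNA genes) was 1.75% to 4.15% in injured against 1.39% to 2.26% in uninjured Nf1-KO skin, and 2.00% to 4.21% in injured against 0.931% to 1.16% in uninjured control skin, where the groups did not overlap. The effect of injury, the sex of the animals and this background cannot be told apart in these samples, nor can injury and the ribosomal RNA-like share in control skin. Nf1 was detected in every library at 8.14 to 14.1 raw CPM in Nf1-KO skin and 8.98 to 17.2 raw CPM in control skin, and gene counts do not separate a recombined allele, so the genotype labels are not checked by it. In whole skin, fewer cells of a type and less RNA per cell give the same reading. Compared with uninjured skin of the same genotype, every gene of the hair follicle (5 of 5), muscle (5 of 5), fibroblast (4 of 4) and blood endothelium (3 of 3) marker lists rose in injured skin of both genotypes, and 3 of 5 keratinocyte markers fell. The part of this change of cells in the subunit values was not tested.

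Per kb of the main transcript, Psmb6 was the most abundant member, with a mean level of 406 TMM-normalised CPM per kb over the 12 libraries, followed by Psmb2 at 329 and Psma7 at 324. Psmd5 (11.9) and Psme4 (12.4) were the lowest of the 41 widely expressed genes. Psmb8 (59.6), Psmb9 (41.2) and Psmb10 (28.3) were of middle to low rank, at 28, 35 and 37 of 43. Psma8 and Psmb11 lay near the floor. Psmb11, the thymus subunit, never exceeded 1.75 times the nose-receptor background, and Psma8, the testis subunit, was under 10 times that background in 9 of 12 libraries.

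**Figure D1:**
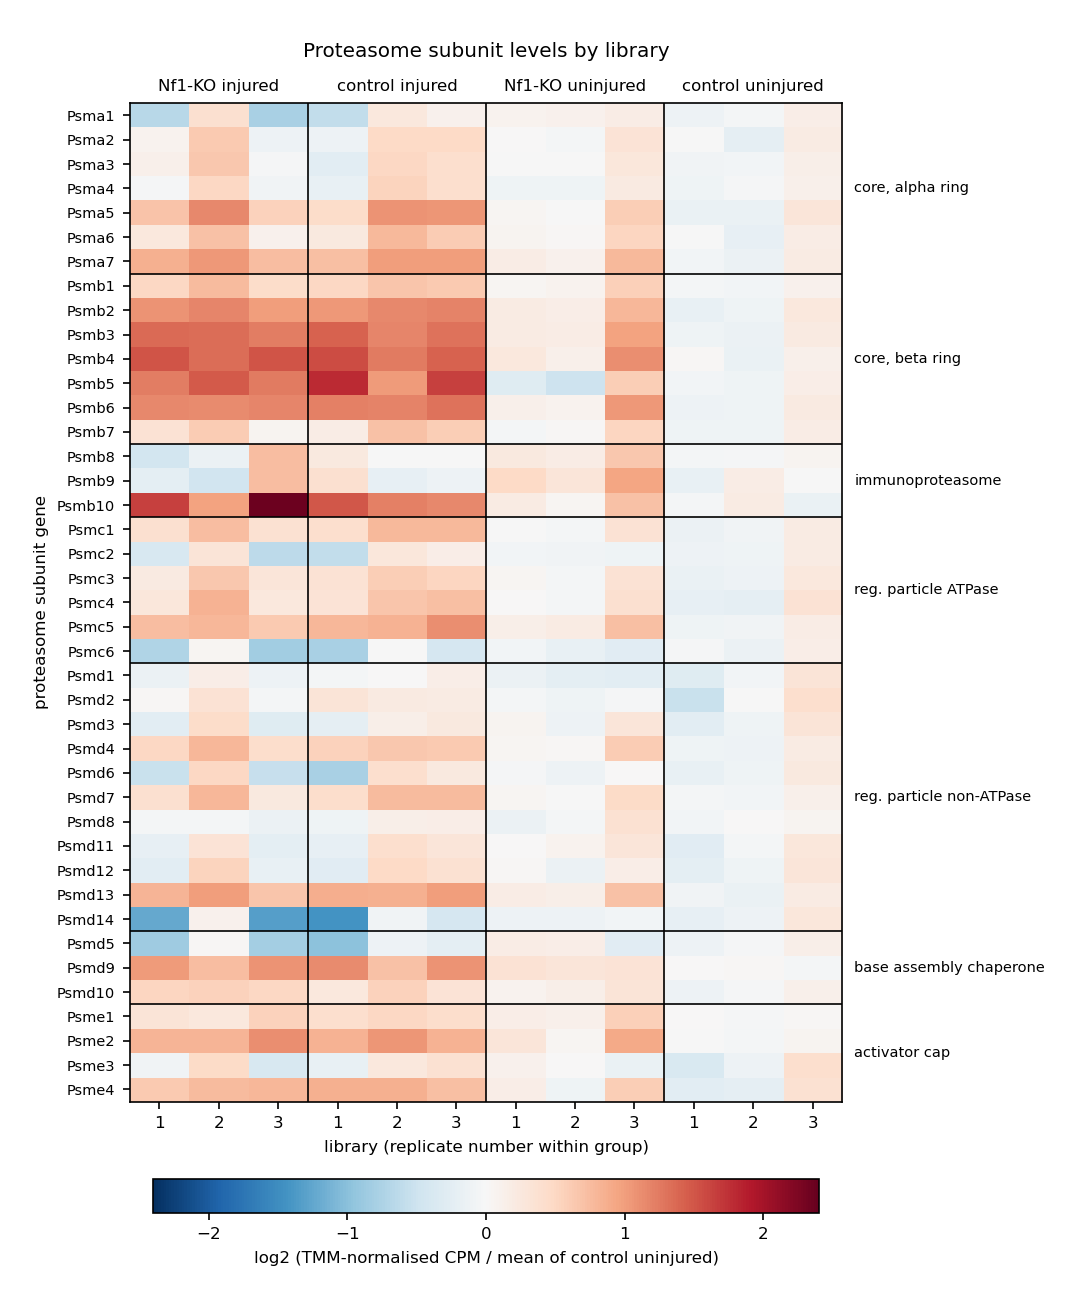
Level of 41 subunit genes (rows, grouped by class) in each of the 12 libraries (columns), as the log2 ratio of the TMM-normalised CPM to the mean of control uninjured skin. Psmb1 to Psmb7 and Psmb10 are above 0 (red) in all 6 injured libraries, Psmb7 only faintly in some. So are genes of other classes, among them Psma7, Psmc5, Psmd13 and Psme2. Psmb8 and Psmb9 are not above 0 in all of them. Psma8 and Psmb11 are left out because of their low counts.

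The beta ring of the constitutive core was higher in injured than in uninjured skin in both genotypes. Genes were tested with edgeR's quasi-likelihood F test across 23635 genes and called at an adjusted p under 0.05 (Benjamini-Hochberg). In Nf1-KO skin 7 of 43 members rose with injury (Psmb2, Psmb3, Psmb4, Psmb5, Psmb6, Psmb10 and Psmd9) and 1 fell (Psmb11), where 19.1% of all tested genes were called higher and 18.4% lower. In control skin 21 members rose and 1 fell (Psmb11), where 22.8% of all tested genes were called higher and 32.5% lower. In both genotypes Psmb11 lay near the background and passed the expression filter on its uninjured counts alone. Among the 6487 genes with a mean of at least 32.1 CPM, the level of the lowest widely expressed member, 26.4% were called higher in Nf1-KO skin and 37.6% in control skin. The members' median log2 fold change was 0.18 in Nf1-KO skin (all genes -0.09, genes of the members' level 0.12) and 0.44 in control skin (all genes -0.21, genes of the members' level 0.22). The count of members called higher was thus below the share among genes of their level in Nf1-KO skin and above it in control skin.

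Within the core, 5 of 7 beta genes rose in Nf1-KO skin and 6 of 7 in control skin, with median log2 fold changes of 0.67 and 1.24. None of the 7 alpha genes was called in Nf1-KO skin by edgeR or DESeq2 (median 0.16), where 2, Psma5 and Psma7, had an unadjusted p under 0.05 and were called by limma voom, and Psma5, Psma6 and Psma7 rose in control skin (median 0.31). The summed beta ring stood at 1926, 2018 and 1863 CPM in injured Nf1-KO skin, against 1016, 992 and 1666 in uninjured Nf1-KO skin. In injured control skin it stood at 2014, 1922 and 2075 CPM, against 891, 878 and 1069 in uninjured control skin. Neither pair of groups overlapped, and uninjured Nf1-KO library 3 stood well above its own group.

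**Figure D2:**
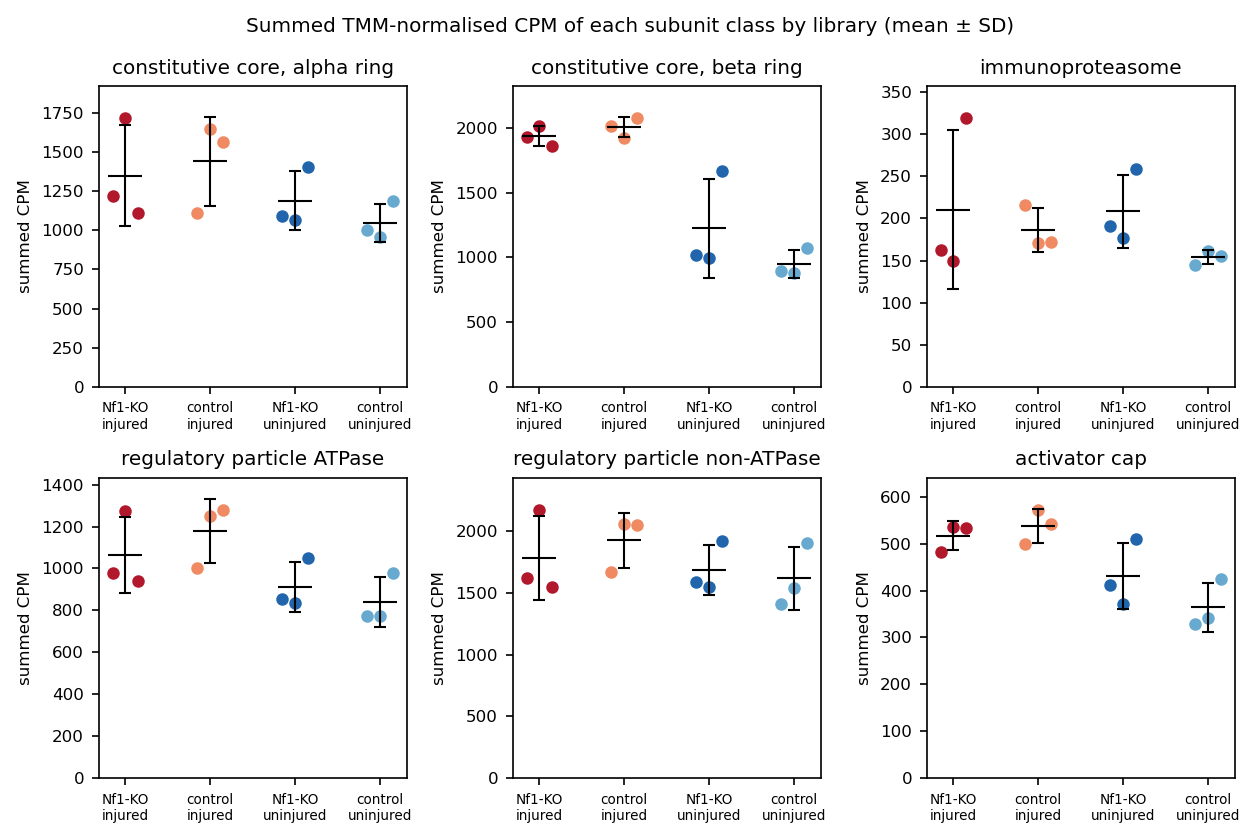
Summed TMM-normalised CPM of 6 subunit classes (panels) in each library (points), with the mean ± SD of 3 libraries per group (black). The beta ring separates injured from uninjured skin in both genotypes, with uninjured Nf1-KO library 3 at 1666 CPM, while the alpha ring and the non-ATPase subunits of the regulatory particle overlap between injured and uninjured skin in both genotypes, and the ATPases in Nf1-KO skin.

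Psmb5, the chymotrypsin-like subunit (ENSMUSG00000022193, chr14:54614119-54618022, mm10), had the largest rise of the constitutive core. It stood at 163, 195 and 166 CPM in injured Nf1-KO skin, against 57.2, 49.6 and 105 in uninjured Nf1-KO skin. In injured control skin it stood at 241, 142 and 217 CPM, against 66.3, 64.7 and 78.4 in uninjured control skin. The groups did not overlap in either genotype. Its log2 fold change was 1.30 ± 0.26 (SE) in Nf1-KO skin (edgeR adjusted p = 0.00135) and 1.52 ± 0.27 in control skin (edgeR adjusted p = 0.000334), and it was called under every alternative setting. Of the annotated genes, Mir686 shares 12.1% of its exonic length, and the kit does not keep strand.

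Psmb6, the caspase-like subunit, showed the same order. Its levels were 412, 408 and 416 CPM in injured Nf1-KO skin, against 203, 196 and 380 in uninjured Nf1-KO skin (log2 0.67 ± 0.24, edgeR adjusted p = 0.0373). In control skin they were 428, 425 and 460 CPM after injury, against 171, 172 and 214 without it (log2 1.24 ± 0.24, edgeR adjusted p = 0.000681). Psmb7, the trypsin-like subunit, stood at 111, 133 and 90.8 CPM in injured Nf1-KO skin, against 84.3, 88.6 and 124 in uninjured Nf1-KO skin. Its control values were 97.8, 141 and 130 CPM after injury, against 80.7, 81.3 and 98.4 without it. These groups overlapped, and Psmb7 was not called (log2 0.17 ± 0.21, adjusted p = 0.535, and 0.50 ± 0.21, adjusted p = 0.0538, in Nf1-KO and control skin by edgeR). The Nf1-KO call of Psmb6 held under 15 of 21 alternative settings and was lost without any 1 of 4 libraries: injured Nf1-KO library 1 (adjusted p = 0.0685 by edgeR), uninjured Nf1-KO library 1 (0.148) or 2 (0.165), or uninjured control library 2 (0.0531). Psmb7 was called higher in control skin under 11 of 21, 8 of them with 1 library left out (log2 0.52 to 0.71).

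Of the non-catalytic beta genes, Psmb4 stood at 345, 308 and 345 CPM in injured Nf1-KO skin, against 144, 132 and 262 in uninjured Nf1-KO skin. Control values were 358, 287 and 325 CPM after injury, against 123, 109 and 132 without it. The fold was 1.86 in Nf1-KO skin and 2.66 in control skin. Psmb3 was 1.76-fold and 2.45-fold higher and Psmb2 1.59-fold and 2.19-fold higher with injury in Nf1-KO and control skin, each called with no overlap between groups. Without uninjured Nf1-KO library 2 the edgeR adjusted p in Nf1-KO skin was 0.0971 for Psmb2, 0.0543 for Psmb3 and 0.0538 for Psmb4, and without library 1 it was 0.0859 for Psmb2. Psmb1 was called in control skin (1.51-fold) and not in Nf1-KO skin (log2 0.32 ± 0.20).

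**Figure D3:**
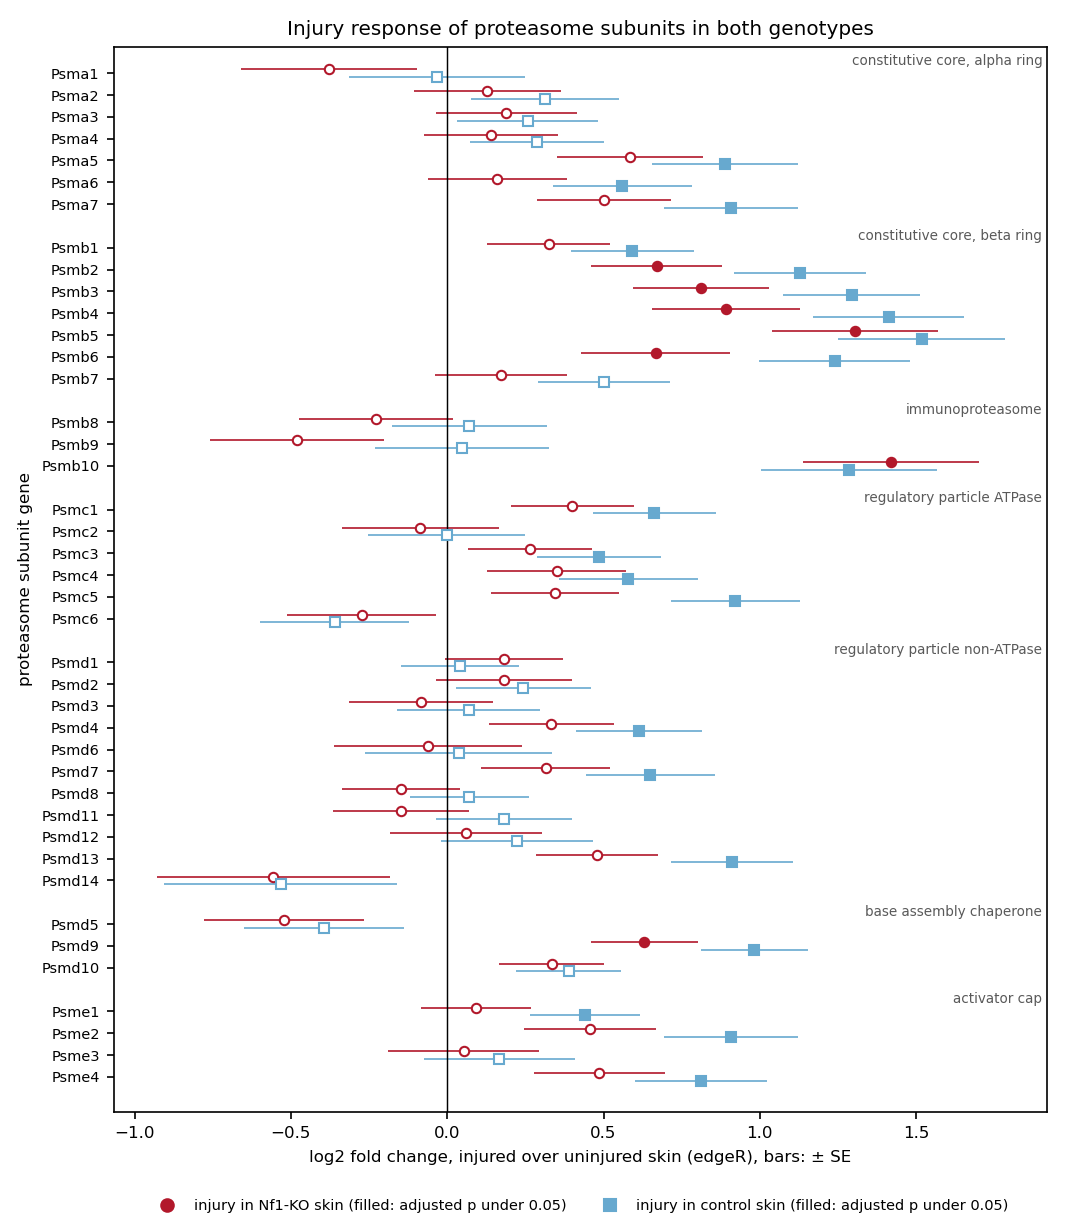
Log2 fold change ± SE of each subunit gene, injured over uninjured skin, in Nf1-KO skin (circles) and control skin (squares), with filled symbols for adjusted p under 0.05. Apart from Psmb10, 5 beta ring genes lie farthest to the right, and 38 of the 41 genes drawn have the lower value in Nf1-KO skin. Psma8 and Psmb11 are left out because of their low counts.

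Of the immunoproteasome genes, Psmb10 rose with injury in both genotypes, while Psmb8 and Psmb9 were not called in either. Psmb10 (chr8:105935735-105938444) stood at 57.2, 35.8 and 93.5 CPM in injured Nf1-KO skin, against 20.9, 19.0 and 29.8 in uninjured Nf1-KO skin. Control values were 51.3, 42.0 and 40.6 CPM after injury, against 17.7, 20.9 and 16.3 without it. No groups overlapped, and the log2 fold change was 1.42 ± 0.28 in Nf1-KO skin (edgeR adjusted p = 0.00118) and 1.29 ± 0.28 in control skin (edgeR adjusted p = 0.00151). With the ribosomal RNA-like share of counts as a covariate the control value was 0.34 (adjusted p = 0.394 by edgeR).

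Psmb8, the counterpart of Psmb5 (chr17:34197721-34201454), stood at 64.2, 79.4 and 145 CPM in injured Nf1-KO skin, against 103, 98.9 and 136 in uninjured Nf1-KO skin. Control skin gave 102, 86.4 and 86.7 CPM after injury, against 84.9, 86.1 and 91.1 without it. The log2 fold changes were -0.23 ± 0.25 (edgeR adjusted p = 0.480) and 0.07 ± 0.25 (edgeR adjusted p = 0.826). Psmb9, the counterpart of Psmb6 (chr17:34181987-34187764), had 41.2, 34.8 and 80.5 CPM in injured Nf1-KO skin, against 66.8, 58.8 and 92.4 in uninjured Nf1-KO skin. In control skin its values were 62.7, 42.2 and 44.4 CPM after injury, against 42.4, 54.3 and 47.7 without it. The log2 fold changes were -0.48 ± 0.28 (edgeR adjusted p = 0.179) and 0.05 ± 0.28, and neither was called.

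Injured Nf1-KO library 3 was the highest of its group for all 3 immunoproteasome genes. That library also had the highest summed leukocyte markers, 659 CPM against 359 and 238 in the other injured Nf1-KO libraries, and the highest summed macrophage markers, 1118 CPM against 804 and 414. It was also the highest of its group for the summed markers of dendritic cells (4077 CPM against 2530 and 1961), fibroblasts (6277 against 3491 and 3072), blood endothelium (166 against 91.8 and 79.3) and Schwann cells (129, with 50.2 in the lowest). For hair follicle (5243 CPM against 9346 and 17826) and skeletal muscle markers (3211 against 4666 and 3751) it was the lowest of its group. All 6 leukocyte markers rose with injury in Nf1-KO skin and 4 of 6 in control skin, and 6 of 6 and 5 of 6 macrophage markers. Of the 4 tested T and natural killer cell markers, Cd3e and Cd3g fell in Nf1-KO skin and Cd3g and Cd8a in control skin. Cd8a was near the floor, with means of 0.087 CPM in injured and 0.61 in uninjured control skin. Its Nf1-KO means were 0.94 CPM after injury and 0.59 without it. The part of these marked cells in the immunoproteasome values was not tested. Without that library Psmb8 and Psmb9 were called lower with injury in Nf1-KO skin (log2 -0.64, adjusted p = 0.0196, and -0.91, adjusted p = 0.00731, by edgeR), and Psmb10 was 1.03 (adjusted p = 0.00396). With the ribosomal RNA-like covariate Psmb9 was also called lower, in both genotypes (log2 -1.02 and -0.88). Of their exonic lengths, 14.7% of Psmb8 overlaps Gm20496 and 5.79% of Psmb9 overlaps Tap1.

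Set against their constitutive counterparts, 2 of the 3 immunoproteasome genes made up less of their pair in injured skin. The ratio of Psmb8 to Psmb5, per kb, was 0.218, 0.225 and 0.482 in injured Nf1-KO skin, against 0.994, 1.10 and 0.714 in uninjured Nf1-KO skin. Control ratios were 0.234, 0.337 and 0.221 after injury, against 0.707, 0.735 and 0.642 without it. All injured values lay below all uninjured ones, 3.21-fold lower in Nf1-KO skin and 2.68-fold lower in control skin. Psmb9 to Psmb6 averaged 0.0745 ± 0.0346 in injured and 0.172 ± 0.0257 in uninjured Nf1-KO skin, and 0.0673 ± 0.0167 in injured and 0.155 ± 0.0282 in uninjured control skin (SD, n = 3 each), 2.44-fold and 2.32-fold lower. Psmb10 to Psmb7 went the other way, at 0.458, 0.238 and 0.911 in injured Nf1-KO skin, against 0.219, 0.190 and 0.213 in uninjured Nf1-KO skin. In control skin it was 0.464, 0.264 and 0.276 after injury, against 0.194, 0.227 and 0.147 without it, 2.24-fold and 1.73-fold higher. Each of these 6 injury comparisons had no overlap and a 2-sided exact permutation p of 0.1, the smallest that 3 against 3 can give, which became 0.2 after adjustment over the 12 ratio tests. The genotype comparisons of the ratios gave p from 0.2 to 0.9 by the same exact permutation test. In the first pairs Psmb5 and Psmb6 were called higher with injury, while Psmb8 and Psmb9 were not called. In Nf1-KO skin Psmb8 and Psmb9 had log2 fold changes of -0.23 and -0.48, so their lower values also entered the ratios there.

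**Figure D4:**
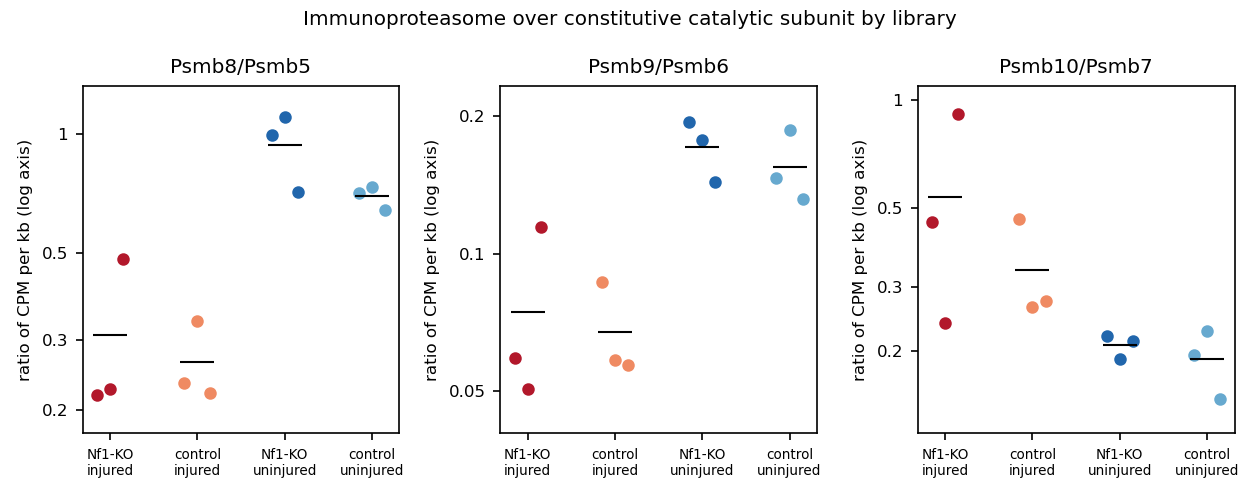
Ratio of the immunoproteasome subunit to its constitutive counterpart, from CPM per kb on a log axis, in each library (points) with the group mean (line). Injured libraries lie lower for Psmb8/Psmb5 and Psmb9/Psmb6 and higher for Psmb10/Psmb7, without overlap in either genotype.

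In the regulatory particle 7 of 17 genes rose with injury in control skin, and none was called in Nf1-KO skin (median log2 0.18, lowest adjusted p = 0.0635 by edgeR), where 1, Psmd13, had an unadjusted p under 0.05, limma voom called that gene and DESeq2 none. Among genes of the members' level 37.6% were called higher in control skin (median log2 0.22) and 26.4% in Nf1-KO skin (median 0.12). The control count and median of the regulatory particle were thus near that background. Of the 7 called in control skin (class median 0.22), 4 were ATPases (Psmc1, Psmc3, Psmc4 and Psmc5) and 3 non-ATPase subunits (Psmd4, Psmd7 and Psmd13). Psmc5, an ATPase of the base, had the largest rise, at 353, 363 and 439 CPM in injured control skin, against 188, 191 and 230 in uninjured control skin. Its log2 fold change was 0.92 ± 0.21 (edgeR adjusted p = 0.00171), and it was 0.34 ± 0.21 in Nf1-KO skin. Psmd13, a lid subunit, was 1.88-fold higher in injured control skin (adjusted p = 0.00130 by edgeR), with 10.1% of its exonic length shared with Sirt3. Psmd4, the ubiquitin receptor Rpn10, was 1.53-fold higher. Psmd14, the deubiquitinase of the lid, was not called (log2 -0.56 ± 0.37 in Nf1-KO skin and -0.53 ± 0.37 in control skin), but was called lower in Nf1-KO skin without injured Nf1-KO library 2 (-1.17, adjusted p = 0.0059 by edgeR).

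Psmd14 also showed how injured libraries differed among themselves. It stood at 47.9, 120 and 44.7 CPM in injured Nf1-KO libraries 1 to 3 and at 41.1, 105 and 84.9 in injured control libraries 1 to 3. Those with the lowest values, Nf1-KO 1 and 3 and control 1, were the ones with the largest share of ribosomal RNA-like counts, 3.40% to 4.21%, against 1.75% to 2.01% in the other 3. Of the 43 members, 26 were lower in all 3 of these libraries than in all 3 others, including all 7 alpha genes, and 2 were higher (Psmb4 and Psmb10). Among genes of the members' level 26.5% were lower in that way and 13.2% higher. Psma1, for example, had 117 to 133 CPM against 216 to 263. The part of that share in the injury values was not tested beyond a fit with that share as a covariate, which is given with the alternatives.

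Of the base assembly chaperones, Psmd9, which helps to build the base, rose in both genotypes (log2 0.63 ± 0.17, adjusted p = 0.00951, in Nf1-KO skin and 0.98 ± 0.17, adjusted p = 0.000333, in control skin, edgeR). Psmd5 (log2 -0.52 and -0.39) and Psmd10 (0.33 and 0.39) were not called. Of the exonic length of Psmd9, 25.5% overlaps Gm26745. The activator caps were called in control skin for 3 of 4 genes. Among genes of the members' level 37.6% were called higher in control skin and 26.4% in Nf1-KO skin. In Nf1-KO skin edgeR, limma voom and DESeq2 called none, and 2 (Psme2 and Psme4) had an unadjusted p under 0.05 in edgeR. Psme2, the PA28 beta subunit, stood at 162, 189 and 161 CPM in injured control skin, against 90.4, 87.5 and 95.0 in uninjured control skin (log2 0.91 ± 0.21, edgeR adjusted p = 0.00229). Psme4 was 1.76-fold and Psme1, the PA28 alpha subunit, 1.36-fold higher there. In Nf1-KO skin their log2 fold changes were 0.46, 0.49 and 0.09. Psme3 was not called in either genotype (0.05 and 0.17). Psme2 has a protein-coding copy, Psme2b, whose counts were at most 3.39% of its own.

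Psmb11 and Psma8 had so few counts that their values are near the background. Psmb11 had 0, 1 and 2 counts in injured Nf1-KO libraries, against 11, 17 and 10 in uninjured ones, and 0 in each injured control library, against 15, 24 and 10 in uninjured ones. It passed the expression filter on its uninjured counts alone, which favours a call as lower with injury. The nose-receptor background was lower in injured libraries too, so a change of Psmb11 cannot be told apart from that of the background. With these limits, Psmb11 was called lower in both genotypes, in Nf1-KO skin under 19 of the 20 alternative settings that tested it. In pooled raw CPM, it was at least 21.2-fold lower in control skin, with 3 counts over the group as the floor. In Nf1-KO skin the ratio of uninjured to injured pooled raw CPM was 16.9 (95% exact counting interval 5.35 to 85.4). The edgeR fold there, which uses TMM factors, was 12.8. Psma8 had 14 pooled counts in injured and 29 in uninjured Nf1-KO skin, and 9 and 23 in control skin, and was not called.

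Between genotypes no subunit was called. In injured skin no member was called between Nf1-KO and control (0.0% of all genes), 0 of 43 had an unadjusted p under 0.05, and limma voom and DESeq2 called none. Psmb10 had the smallest p among the widely expressed genes (log2 0.48 ± 0.28, unadjusted p = 0.101 by edgeR), and Psmb5 was -0.20 ± 0.26. In uninjured skin no member was called either (0.0296% of all genes), although 35 of 43 had positive log2 fold changes (median 0.18, genes of the members' level 0.09, all genes -0.04) and 4 had an unadjusted p under 0.05. Over all tested genes 1971 of 23635 had an unadjusted p under 0.05 by edgeR, a share near that of the members. The 4 members, Psmb3, Psmb4, Psmb9 and Psme2, were 1.38- to 1.51-fold higher in Nf1-KO skin. Both limma voom and DESeq2 called none. Uninjured Nf1-KO library 3 was above the other 2 of its group for all 4. Psmb9 stood at 66.8, 58.8 and 92.4 CPM in uninjured Nf1-KO skin, against 42.4, 54.3 and 47.7 in uninjured control skin, without overlap.

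The injury response was not shown to differ between genotypes for any member: 0 were called (0.0% of all genes), 0 had an unadjusted p under 0.05, and limma voom and DESeq2 also called none. The sign was mostly the same, with 38 of 43 log2 differences (Nf1-KO minus control) below 0 and all 14 constitutive core genes among them (core median -0.34, members' median -0.26, genes of the members' level -0.12, all genes 0.17). Psmc5 had the smallest p among the widely expressed genes (-0.58 ± 0.29, unadjusted p = 0.0633 by edgeR), followed by Psmb6 (-0.57 ± 0.34, unadjusted p = 0.106). Uninjured Nf1-KO library 3 stood apart in the baseline. Its hair follicle markers summed to 60.5 CPM, against 20.3 and 21.8 in the other libraries of its group and 5243 to 17826 in injured Nf1-KO skin. Its summed skeletal muscle (428 CPM against 123 and 99.5) and keratinocyte markers (32329 against 21780 and 21823) were also higher. Its Schwann cell (43.9 against 89.5 and 99.2) and T and natural killer cell markers (31.9 against 66.7 and 51.6) were lower. Without that library 16 members rather than 7 were called higher with injury in Nf1-KO skin. The count was 3 without uninjured Nf1-KO library 2. In control skin it was 5 without control uninjured libraries 1 and 2, the 2 of highest background, which leaves 1 baseline library.

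Genes that build or feed the proteasome were followed with the members. A list of 7 genes held the core assembly factors Pomp and Psmg1 to Psmg4, the inhibitor Psmf1, and Akirin2. Of these, 6 rose with injury in each genotype, and Psmf1 was not called. The share called higher among genes of the members' level was 26.4% in Nf1-KO skin and 37.6% in control skin. Pomp, the chaperone that matures the core, stood at 359, 287 and 344 CPM in injured Nf1-KO skin, against 144, 134 and 258 in uninjured Nf1-KO skin (log2 0.89 ± 0.23, edgeR adjusted p = 0.00838). Control skin gave 346, 312 and 328 CPM after injury, against 119, 115 and 141 without it (log2 1.40 ± 0.24). Psmg4 was 1.78- and 2.58-fold higher, and Akirin2, which brings proteasomes into the nucleus, 1.51- and 1.88-fold. Sem1, a small lid subunit outside the name rule, was called in control skin (2.20-fold, adjusted p = 0.00101 by edgeR). The difference between genotypes for Sem1 was not called (log2 -0.61, adjusted p = 0.507). Of 12 ubiquitin and shuttle factors, 3 rose and 1 fell in Nf1-KO skin, and 5 rose and 1 fell in control skin, near the 26.4% and 37.6% of genes of the members' level called higher. Rad23b, a shuttle that carries substrates to the proteasome, was 1.58- and 2.27-fold higher, and Ubqln1, another shuttle, fell (log2 -0.59 and -0.65). In the NRF1 axis, which restores subunit transcription when proteasomes fail, 1 of 7 genes fell and none rose in each genotype, Ngly1 being the one (1.77- and 1.74-fold lower). The share called lower among genes of the members' level was 19.1% in Nf1-KO skin and 21.2% in control skin. Nfe2l1, the gene of NRF1 itself, was not called (log2 -0.47 and -0.42).

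Class I antigen presentation uses peptides made by proteasomes. In the MHC class I list of 10 genes, 4 fell and 1 rose in Nf1-KO skin, where 19.1% of genes of the members' level were called lower. In control skin 2 fell and 1 rose, where 21.2% of such genes were called lower, so the control count was near that background. Tap1, a subunit of the peptide transporter encoded beside Psmb9, stood at 59.2, 81.0 and 93.5 CPM in injured Nf1-KO skin, against 155, 163 and 183 in uninjured Nf1-KO skin (log2 -1.10 ± 0.20, edgeR adjusted p = 0.000641). Control values were 96.1, 77.0 and 78.8 CPM after injury, against 117, 143 and 163 without it (log2 -0.75 ± 0.20, adjusted p = 0.00539). B2m, the light chain of class I, was 2.02- and 1.67-fold lower. The gene that rose was Calr, a chaperone of class I folding (1.76- and 1.92-fold). Of 9 genes tested in the interferon gamma axis, Irf1 and Irf8 rose in both genotypes, and Ifngr1 and Nlrc5 fell in both. Jak1 was called lower in control skin as well. Among genes of the members' level 26.4% were called higher and 19.1% lower in Nf1-KO skin, so the Nf1-KO counts were near that background. In control skin these shares were 37.6% and 21.2%. Nlrc5, the transactivator of class I genes, stood at 14.3, 24.1 and 19.6 CPM in injured Nf1-KO skin, against 69.6, 81.7 and 81.5 in uninjured Nf1-KO skin. In control skin it had 34.3, 18.9 and 21.6 CPM after injury, against 55.7, 84.7 and 98.4 without it, 4.02- and 3.20-fold lower. Ifngr1, a chain of the interferon gamma receptor, was 5.19- and 4.41-fold lower. No gene of these lists was called between genotypes.

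**Figure D5:**
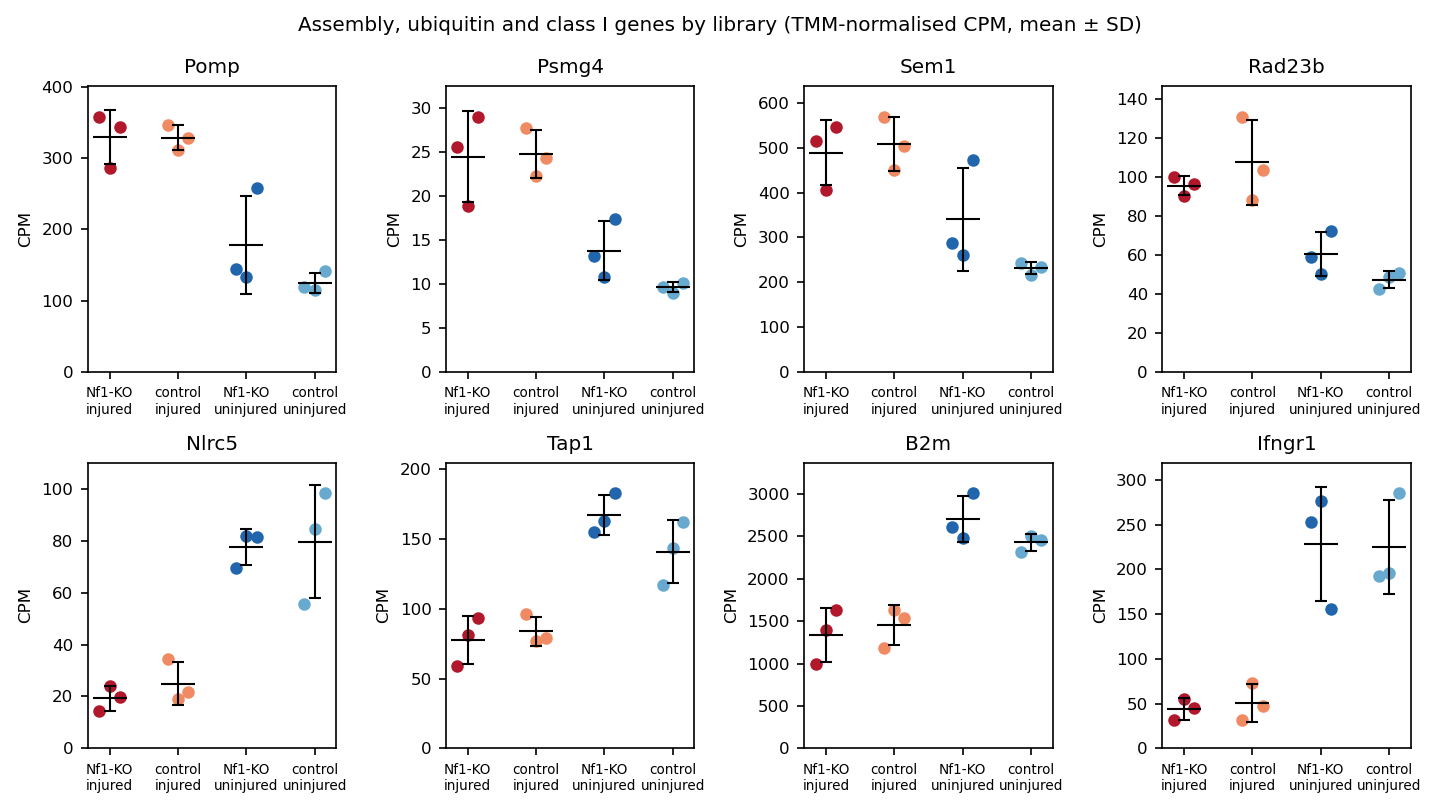
TMM-normalised CPM of 8 genes around the proteasome in each library (points), with the mean ± SD of 3 libraries per group (black). Pomp, Psmg4, Sem1 and Rad23b average higher and Nlrc5, Tap1, B2m and Ifngr1 lower in injured than in uninjured skin of both genotypes. Uninjured Nf1-KO library 3 is the highest of its group for Pomp (258 CPM), Psmg4, Sem1 (473 CPM), Rad23b, Tap1 and B2m, and not for Nlrc5 or Ifngr1.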

How the data were processed

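Per the labels, total RNA of whole skin was extracted with the RNeasy Fibrous Tissue kit, amplified with Smart-Seq v4 from 10 ng and made into Nextera XT libraries, a kit that does not keep strand. The deposited values are counts per Ensembl gene, whole numbers not scaled by the authors, 1 library per column per the file headers. The submitters' processing notes name HTSeq 0.5.3, STAR 2.5.2b, HOMER, SAMtools and DESeq2 with mm10, but what each tool did, and which annotation was used, is not given in the sources used here. Repeated columns were equal, and 1 column of no listed sample was not used. Of 53379 IDs, 53274 matched GENCODE M21. Replicate libraries of a group differed beyond sampling noise (chi-square per degree of freedom 9.55 to 87.8 over 12 pairs).

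One edgeR 4.0.16 fit (R 4.3.3) over the 12 libraries used a mean per group, TMM factors, filterByExpr with a count minimum of 10, and robust quasi-likelihood F tests (2-sided), adjusted by Benjamini-Hochberg over 23635 genes. The script was tested on simulated data. Alternatives used limma 3.58.1 voom and DESeq2 1.42.0, other scalings and filters, a replicate block, a ribosomal RNA-like covariate, the compared groups alone, and each library left out. Levels are TMM-normalised CPM, and values per kb use the main transcript. Ratios were compared on the log2 scale with 2-sided exact permutation tests. Reads carry no molecular identifiers, so intervals and floors cover counting error only.

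The members, lists and rules were chosen with earlier results of these data known. Named genes were 12 members in every comparison, up to 8 other members with the largest rise or fall among those called, and up to 3 called genes of each list. Other genes named were chosen after their values were seen, and 1 listed symbol, AI314180, had no match.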

Additional observations from a re-analysis of the deposited data

How the results depend on the processing

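With 21 alternative settings, no member was called in either genotype contrast or in the difference between the injury responses under any setting that gave a value. For injury in Nf1-KO skin, 5 to 10 members were called higher under the settings that keep all libraries (7 in the fit as reported), and 3 to 16 when 1 library was left out. Those called lower numbered 1 (Psmb11, or Psmb9 in its place with the ribosomal RNA-like covariate, where Psmb11 had an edgeR adjusted p of 0.056), 0 with the filter of 2 CPM in 3 samples, and 1 to 5 when 1 library was left out (5 without injured Nf1-KO library 2, 3 without library 3). For injury in control skin, 18 to 23 were called higher (21 as reported), 14 to 24 when 1 library was left out, and 5 without control uninjured libraries 1 and 2. Those called lower numbered 1, 0 with that filter or the compared groups alone, 2 with limma voom or the ribosomal RNA-like covariate, and 1 to 2 when 1 library was left out. With that covariate Psmc2 (log2 0.84, edgeR adjusted p = 0.0203), Psma1 (0.91, edgeR adjusted p = 0.0229) and Psmb9 (-0.88, edgeR adjusted p = 0.0427) changed sign for injury in control skin and were called. In control skin that share does not overlap between injured and uninjured libraries, so the share and injury cannot be told apart. Psmb5 was called in both genotypes under every alternative. Over all genes, injury called 8851 genes in Nf1-KO skin (5460 with the covariate, 5647 to 10020 when 1 library was left out) and 13072 in control skin (6647 with the covariate, 6164 without control uninjured libraries 1 and 2, 10915 to 14882 when 1 library was left out). Of the genes called in Nf1-KO skin 50.9% were higher in edgeR and 39.7% in DESeq2, and in control skin 41.3% and 29.8%. Median-of-ratios scaling moved the median of all genes for injury in Nf1-KO skin from -0.09 to -0.20. Nf1-KO in injured skin called 0 genes (410 without a filter, 124 in DESeq2, 1 in limma voom, 3 with the covariate, 0 to 89 when 1 library was left out). Nf1-KO in uninjured skin called 7 (219 without a filter, 60 in DESeq2, 27 in the compared groups alone, 4 with median-of-ratios scaling, 2 with the filter of 2 CPM or limma voom, 1 with the replicate block, 0 with the covariate, 0 to 12 when 1 library was left out). The difference between the injury responses called 0 (236 without a filter, 37 in DESeq2, 2 with the covariate or without control uninjured libraries 1 and 2, 0 to 3 when 1 library was left out). The labels do not say whether samples of equal replicate number share an animal, litter or day. Deviations of same-numbered libraries from their group means had correlations of -0.42 to 0.38 over 18 pairs. Of 12 libraries, 5 correlated best with their own number. With 3 libraries per group these values cannot decide whether the numbers pair the samples. With the replicate block, 8 members in Nf1-KO skin and 21 in control skin were called higher with injury.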
